A study of Homo sapiens with 8 samples.

Results

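The epidermal differentiation complex is a cluster of genes on chromosome 1 that squamous epithelia use late in their maturation. Its members were taken as the protein-coding genes whose deposited start lies between 151.98 and 153.65 Mb of chromosome 1 (GRCh38), listed in either of the 2 expression tables. There were 53 such genes among 34164 genes in either table, of which 17320 were protein-coding. By symbol they comprised 16 S100 genes, 11 SPRR genes, 10 LCE genes, 6 genes of the S100-fused type, IVL, and 9 other genes. Of these, 51 are listed for the inhibitors and 40 for the knockdowns, with 38 in both tables. The members were chosen by their deposited start positions, and the window was selected on the FPKM changes of these same libraries, so every value is given as a description and no p-value is given for a member.

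The proteins encoded here build and regulate the surface of stratified epithelia. Involucrin (IVL), the small proline-rich proteins (SPRR) and the late cornified envelope proteins (LCE) are cross-linked by transglutaminases beneath the cell membrane, where they form the cornified envelope. Filaggrin, trichohyalin and their relatives join an S100-type calcium-binding domain to long repeats and organise keratin. The S100 proteins are small calcium sensors with roles in membrane dynamics, the cytoskeleton and inflammation, and several of them, together with SPRR genes, are abundant in the normal oesophageal lining.

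RNA was sequenced from Kyse510 cells, a human oesophageal squamous cell carcinoma line, in 8 libraries, a single one for each condition. The inhibitor table holds cells given vehicle, the LSD1 inhibitor SP2509 at 7 µM, the G9a inhibitor UNC0642 at 7 µM, or SP2509 together with UNC0642 at doses that the labels do not state. LSD1 is a histone demethylase and G9a a histone methyltransferase, and treatment lasted 2 days. In the knockdown table the cells carried a doxycycline-inducible hairpin against LSD1 (shLSD1) or G9a (shG9a), had been selected in puromycin for 14 days, and were grown without or with doxycycline (Dox) for 2 days. Each hairpin line is a single construct, and no line with a nonsilencing hairpin and doxycycline was analysed here, so the effect of doxycycline itself cannot be told apart from that of the hairpin. Since no condition was replicated, the intervals given below are 95% counting intervals from the reads behind each value.

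Levels are given in FPKM, fragments per kilobase of gene scaled to library size, which allows genes of different length to be compared within a library. The 2 tables were normalised separately, so levels in both are set side by side only. A member was called higher or lower where (FPKM + 1) differed by at least 1.3-fold from its own control and at least 1 of the 2 libraries reached 1 FPKM. Fold values with an interval are plain ratios of FPKM and can exceed the change with the added 1, above all in genes of low level. Library totals recovered from the values ran from 15662035 to 17889466 fragments. KDM1A, which encodes LSD1, was 25.98 FPKM in shLSD1 cells without Dox and 6.29 with Dox, and EHMT2, which encodes G9a, was 7.85 and 4.76 FPKM in the shG9a pair. Over genes at 5 FPKM or more on both sides of a comparison, the median log2 ratio was −0.10 for SP2509, 0.12 for shLSD1 and 0.15 for shG9a. The 7 squamous markers (KRT5, KRT14, KRT6A, KRT17, TP63, SFN and DSG3) had values above 0 in every library, with summed levels of 732 to 4931 FPKM. KRT17 alone was 3716 FPKM of the highest sum, with SP2509. The markers moved in both directions. In vehicle and with both inhibitors, TP63 was 79.1 and 18.3 FPKM, KRT5 427 and 163, and DSG3 28.6 and 9.63. In the same order KRT17 was 324 and 594 FPKM, SFN 179 and 690, KRT14 1.93 and 10.1, and KRT6A 0.676 and 16.1. Fibroblast markers summed to 3.08 to 6.65 FPKM, and PDGFRA is listed in neither table. Of the 2 endothelial markers, CDH5 was 3.28 FPKM in vehicle, 4.43 under SP2509, 4.19 under UNC0642 and 11.8 under the combination, 5.21 and 14.0 FPKM without and with Dox in shLSD1 cells, and 3.40 and 4.66 FPKM in shG9a cells, while PECAM1 did not exceed 0.569 FPKM. In RNA from a whole culture, fewer cells of a type and less RNA per cell cannot be told apart.

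Before the values, the upstream sequences of 6 members are shown because these genes carry the changes described below: SPRR2A, SPRR1A, LCE3D and PRR9 with both inhibitors, IVL with either inhibitor and with either hairpin, and S100A9 with UNC0642 and with shLSD1. Each is the 200 bases before the RefSeq transcription start (GRCh38.p14), read in the direction of the gene. Capitals mark the AP-1 motif TGANTCA, the binding site of Jun and Fos dimers, and the TATA box TATAAA, searched on both strands.
SPRR2A (chr1:153057513-153057712, - strand): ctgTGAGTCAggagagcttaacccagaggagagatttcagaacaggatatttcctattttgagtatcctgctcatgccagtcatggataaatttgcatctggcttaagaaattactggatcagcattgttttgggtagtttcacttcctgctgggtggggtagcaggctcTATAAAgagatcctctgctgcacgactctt
SPRR1A (chr1:152983881-152984080, + strand): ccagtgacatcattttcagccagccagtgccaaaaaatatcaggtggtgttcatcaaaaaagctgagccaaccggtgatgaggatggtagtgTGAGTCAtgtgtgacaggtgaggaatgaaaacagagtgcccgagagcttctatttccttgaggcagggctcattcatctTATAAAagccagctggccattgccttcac
IVL (chr1:152908346-152908545, + strand): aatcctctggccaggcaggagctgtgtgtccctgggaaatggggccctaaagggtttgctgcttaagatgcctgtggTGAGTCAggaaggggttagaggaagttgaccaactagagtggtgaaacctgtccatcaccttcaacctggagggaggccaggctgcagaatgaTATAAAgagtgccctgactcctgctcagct
PRR9 (chr1:153217384-153217583, + strand): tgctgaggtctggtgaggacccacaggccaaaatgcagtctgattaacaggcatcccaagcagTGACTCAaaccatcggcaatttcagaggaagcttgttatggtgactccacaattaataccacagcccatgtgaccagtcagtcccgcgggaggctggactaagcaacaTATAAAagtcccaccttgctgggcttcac
S100A9 (chr1:153357654-153357853, + strand): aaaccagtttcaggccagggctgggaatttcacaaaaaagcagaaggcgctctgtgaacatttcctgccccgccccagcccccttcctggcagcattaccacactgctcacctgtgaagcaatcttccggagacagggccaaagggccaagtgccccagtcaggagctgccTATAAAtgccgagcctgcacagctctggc
LCE3D (chr1:152580517-152580716, - strand): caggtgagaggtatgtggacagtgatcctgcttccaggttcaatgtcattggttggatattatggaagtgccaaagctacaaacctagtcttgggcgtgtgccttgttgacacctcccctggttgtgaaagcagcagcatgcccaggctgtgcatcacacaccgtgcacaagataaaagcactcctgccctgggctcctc
SPRR2A, SPRR1A, IVL and PRR9 each held 1 AP-1 motif and 1 TATA box in these bases, the TATA box beginning 29 or 30 bases before the start. The S100A9 stretch held the TATA box only, and the LCE3D stretch neither. Promoters of 48 of the 53 members were matched by symbol. In the 250 bases before the start, the AP-1 motif was present in 17 of the 48 (35.4%), against 2308 of 35116 promoters of all genes (6.57%). The TATA box was present in 24 of the 48 (50%), against 3763 of 35116 (10.7%). The cyclic AMP response element TGACGTCA was present in 0 of the 48 and in 1.65% of all promoters, and the grainyhead-like motif AACCGGTT in 0 and 0.117%. Such matches describe the letters only, and binding was not measured in these libraries.

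In vehicle-treated cells the cluster was uneven. The 6 genes S100A10, S100A11, S100A6, S100A2, S100A16 and S100A14, made up 97.0% of the summed FPKM of all members, and between 86.3% and 97.0% in the 8 libraries. Only 12 members reached 1 FPKM in vehicle, against 16 under SP2509, 21 under UNC0642 and 29 under the combination. In the knockdown table the numbers were 16 and 15 for shLSD1 without and with Dox, and 16 and 14 for shG9a. At least 1 read was found for 28 members with vehicle and for 49 of the 51 listed with both inhibitors. No listed gene is at 0 in all 4 libraries of its table, and PRR9, LELP1 and SPRR2E, among others, are listed for the inhibitors through the combination alone. The number with a read is thus partly set by the listing. Shares of all genes with a read or at 1 FPKM in each library were not determined. Over all libraries 31 members reached 1 FPKM somewhere and are described one by one, whereas 22 stayed below it, with highest levels between 0.0697 and 0.812 FPKM.

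**Figure D1:**
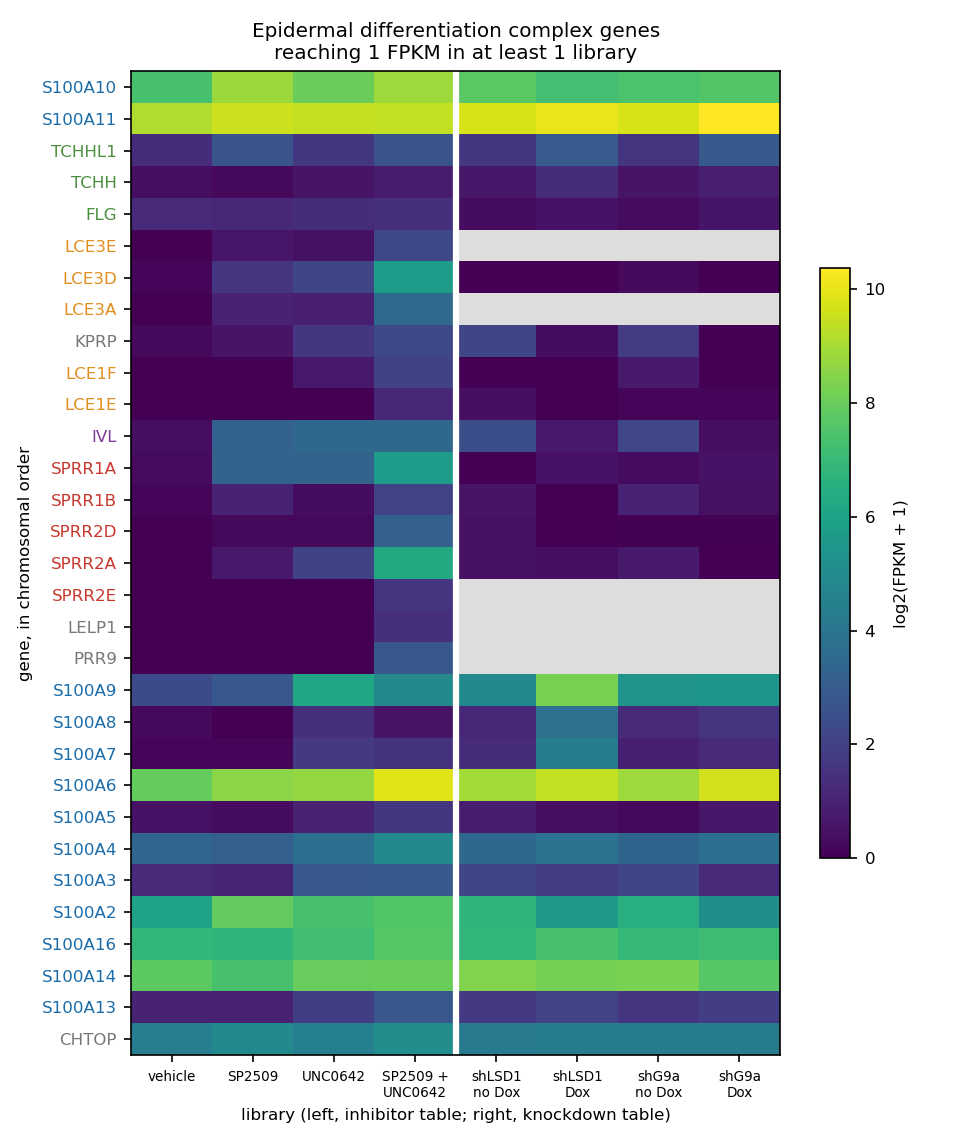
Level of each of the 31 members that reached 1 FPKM in at least 1 library, as log2(FPKM + 1) in colour, with genes in chromosomal order from top to bottom and libraries from left to right. Grey marks genes not listed in the knockdown table, and gene names are coloured by family (blue S100, red SPRR, orange LCE, green S100-fused, purple IVL, grey other). The middle block of LCE and SPRR genes is near 0 with vehicle and brightest with both inhibitors, with SPRR2A at 77.8 FPKM.

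The SPRR genes were close to silent in vehicle-treated cells and were highest with both inhibitors. The summed level of the family went from 0.339 FPKM in vehicle to 10.7 under SP2509, 12.6 under UNC0642 and 143 under the combination. SPRR2A had 0 reads with vehicle, which allows up to 0.270 FPKM (3 reads), and stood at 0.634 FPKM with SP2509, 3.07 with UNC0642 and 77.8 with both. The combination was thus at least 288-fold higher than vehicle, and it was 25.3-fold (18.4 to 35.8) above UNC0642 alone. SPRR1A, a cross-linked precursor of the same family, was 0.236 FPKM in vehicle (1 read), 8.94 under SP2509, 8.90 under UNC0642 and 50.7 under the combination. Both single inhibitors gave nearly the same SPRR1A level, and the combination was 5.67-fold (4.08 to 8.04) above SP2509 alone and 214-fold (38.1 to 8502) above vehicle. The endothelial marker CDH5 was also highest of these 4 libraries with both inhibitors, at 11.8 FPKM against 3.28 in vehicle, and the summed level of the 2 endothelial markers was 12.1 against 3.28 FPKM. Their part in the SPRR values, and in the LCE values given below, was not tested.

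The other SPRR genes that reached 1 FPKM in the inhibitor table did so with both inhibitors only. That they were highest there was therefore fixed by the minimum level. SPRR2D had 0 reads in vehicle, 3 under SP2509, 3 under UNC0642 and 143 under the combination, where it reached 8.01 FPKM, at least 44.2-fold higher than vehicle. SPRR1B had 1, 11, 3 and 35 reads in the same order and was 3.34 FPKM with both inhibitors. SPRR2E had 0 reads in the first 3 libraries and reached 1.94 FPKM with both inhibitors, at least 3.71-fold higher than vehicle. The length behind the SPRR2E value could not be fixed, so its read count is uncertain. Of the 11 SPRR genes, SPRR3, SPRR4, SPRR5, SPRR2B, SPRR2F and SPRR2G stayed below 1 FPKM, and among them SPRR3 had 11 reads and SPRR2G 5 reads with both inhibitors and 0 with vehicle, SP2509 or UNC0642.

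The SPRR2 genes resemble each other closely, and reads may be divided among them. In the GENCODE 44 transcripts, 21.5% of the 100-base windows of SPRR2A occur in SPRR2B, SPRR2D or SPRR2E as well, and the shares were 12.1% for SPRR2E and 4.57% for SPRR2D. How shared reads were counted is not given in the sources used here. Taken as a group, SPRR2 genes had 0 reads in vehicle, 11 under SP2509, 42 under UNC0642 and 1093 under the combination. No library with both hairpins was analysed here, so the combination has no counterpart among the knockdowns. With the hairpins singly, the SPRR2 genes had 12 reads in shLSD1 cells without Dox and 4 with Dox, and 10 and 1 in the shG9a pair. SPRR1A had 0 and 2 reads in the shLSD1 pair and 1 and 2 in the shG9a pair. SPRR1B had 5 and 0 reads in the shLSD1 pair, and it had 11 and 4 reads in the shG9a pair (1.07 and 0.373 FPKM, a ratio of 0.347 with an interval of 0.0807 to 1.17).

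The LCE genes, whose products are laid onto the envelope late in cornification, showed the same order of libraries. Their summed level was 0.160 FPKM in vehicle, 3.69 under SP2509, 5.52 under UNC0642 and 71.2 under the combination. LCE3D made up most of it, with 0.104 FPKM in vehicle (1 read), 2.02 under SP2509, 3.56 under UNC0642 and 51.7 under the combination. The LCE3D ratio of the combination to vehicle was 496, with an interval of 88.7 to 19643 that reflects the single read in vehicle. Against UNC0642 alone the ratio was 14.5 (10.5 to 20.7). LCE3A had 0, 5, 4 and 50 reads in the order vehicle, SP2509, UNC0642 and both, and reached 10.97 FPKM, at least 15.5-fold higher than vehicle. LCE3E had 0, 6, 4 and 39 reads and reached 3.78 FPKM, at least 12.1-fold higher.

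Members of the LCE1 group were detected in fewer libraries. LCE1F had 0 reads with vehicle and SP2509, 4 with UNC0642 and 19 with both inhibitors (3.15 FPKM, at least 5.88-fold higher than vehicle). LCE1E had reads with both inhibitors only, 28 of them (1.28 FPKM, at least 8.66-fold higher than vehicle). In the knockdown table LCE1E had 8 reads without Dox and 0 with Dox in shLSD1 cells, and 2 and 2 in shG9a cells, and LCE1F had 4 and 0 in shG9a cells. LCE3D had 0 and 0 reads in the shLSD1 pair and 2 and 0 in the shG9a pair. The other 5 LCE genes (LCE5A, LCE2C, LCE2A, LCE1C and LCE1B) stayed below 1 FPKM in every library, with at most 5 reads in any of them. LCE3D and LCE3E share 5.32% and 5.39% of their 100-base windows with each other.

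Involucrin was similar under the 3 inhibitor treatments and lower with Dox in both hairpin lines. IVL was 0.297 FPKM in vehicle (10 reads), 8.45 under SP2509, 10.4 under UNC0642 and 10.3 under the combination. These levels were 28.5-fold (15.3 to 60.0), 35.2-fold (18.9 to 74.0) and 34.7-fold (18.7 to 73.0) above vehicle, and the combination did not exceed UNC0642 alone (ratio 0.986, 0.854 to 1.14). In the knockdown table IVL was 4.55 FPKM without Dox and 0.637 with Dox in shLSD1 cells, 7.15-fold lower (4.65 to 11.5), and 3.65 and 0.322 FPKM in shG9a cells, 11.3-fold lower (6.28 to 22.5). The level was thus high with the inhibitors and in the uninduced lines, and low in vehicle and in the induced lines, with the 2 tables set side by side only.

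KPRP, a keratinocyte proline-rich envelope protein, resembled IVL in the knockdown table. It was 0.205 FPKM in vehicle, 0.451 under SP2509, 2.13 under UNC0642 and 3.71 under the combination, which was 10.4-fold (5.07 to 24.8) and 18.1-fold (8.96 to 42.6) above vehicle for the last pair. In shLSD1 cells KPRP was 3.503 FPKM without Dox and 0.275 with Dox, 12.7-fold lower (7.09 to 25.2). In shG9a cells it had 102 reads without Dox and 1 with Dox, at 2.47 and 0.0232 FPKM, 107-fold lower (18.7 to 4259). PRR9, a proline-rich protein, had 0 reads with vehicle and with each single inhibitor and 125 with both, where it reached 6.03 FPKM, at least 38.7-fold higher than vehicle and at least 44.2-fold higher than UNC0642 alone. LELP1, a neighbour of PRR9, had 0 reads in the same 3 libraries and 15 with both inhibitors (1.70 FPKM, at least 4.64-fold higher than vehicle). Neither PRR9 nor LELP1 is listed in the knockdown table, which holds no gene at 0 in all 4 of its libraries.

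**Figure D2:**
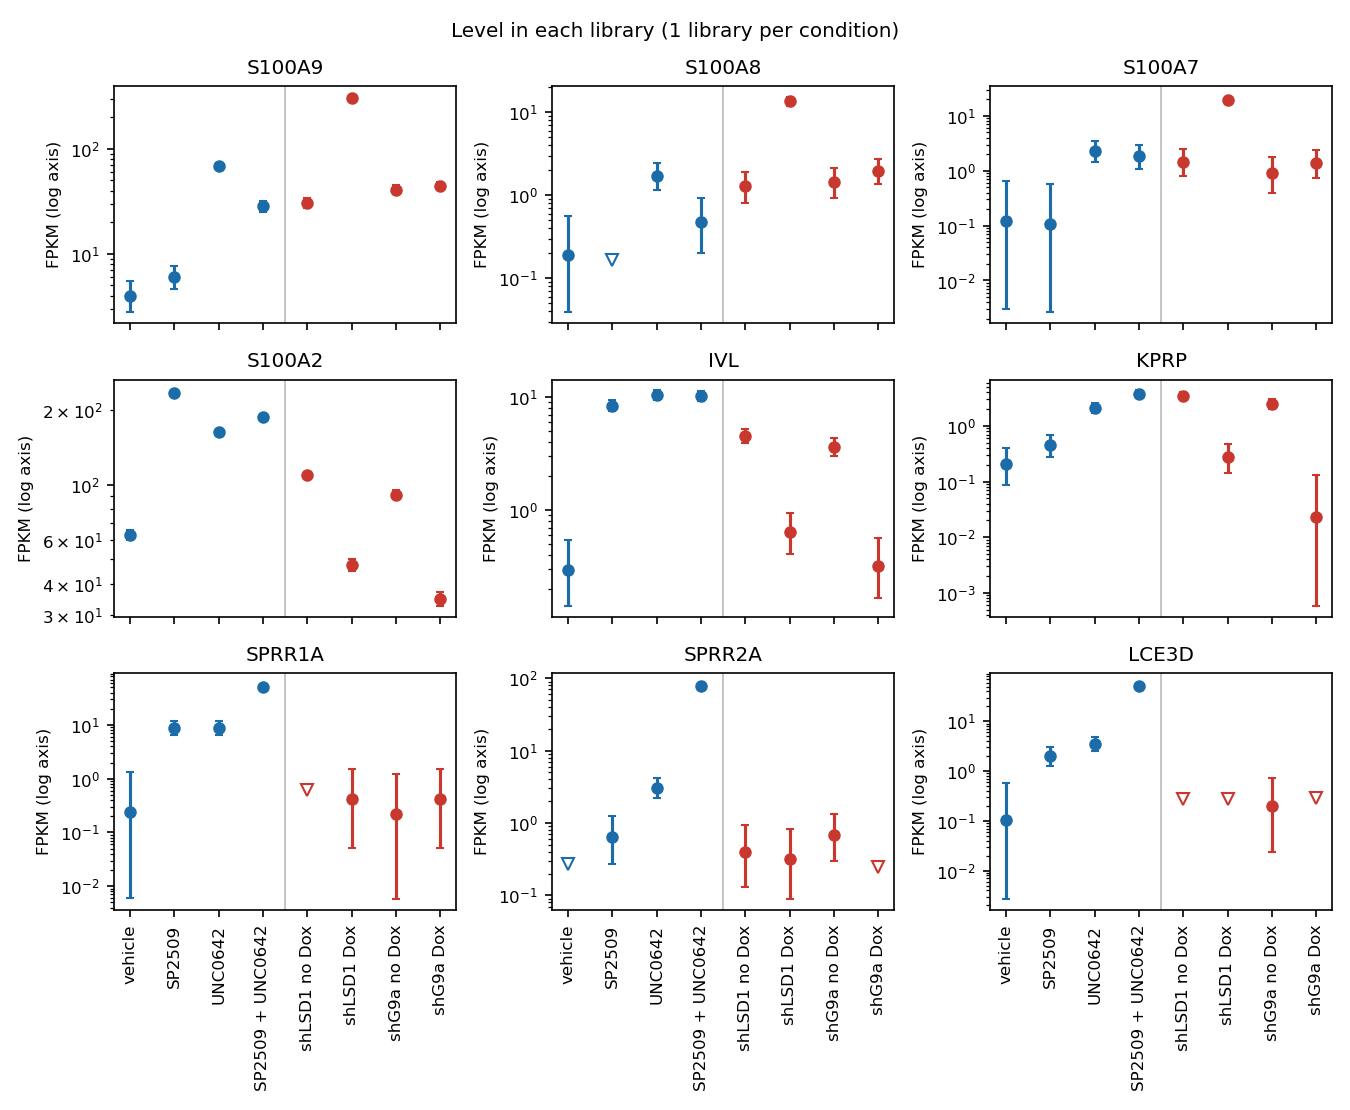
Level in FPKM (log axis) of 9 members in each library, with inhibitor libraries in blue and knockdown libraries in red, and bars for the 95% counting interval. Open triangles stand at the level of 3 reads where a library had 0 reads. SPRR1A, SPRR2A and LCE3D were highest with both inhibitors (50.7, 77.8 and 51.7 FPKM), IVL was alike under the 3 inhibitor treatments (8.45 to 10.4 FPKM) and lower with Dox in both lines, and S100A9, S100A8 and S100A7 were highest in shLSD1 cells with Dox.

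Of the 6 S100-fused genes, 3 reached 1 FPKM. TCHHL1, a trichohyalin-like protein, was 1.51 FPKM in vehicle, 5.41 under SP2509, 2.22 under UNC0642 and 5.36 under the combination. With SP2509 it was 3.59-fold (2.83 to 4.61) above vehicle, and adding UNC0642 left it at 0.991 of that level (0.849 to 1.16). It was 2.09 and 6.93 FPKM without and with Dox in shLSD1 cells and 2.06 and 6.63 FPKM in shG9a cells, 3.31-fold (2.72 to 4.04) and 3.21-fold (2.62 to 3.96) higher. TCHHL1 was called higher in 4 of the 5 comparisons, and with UNC0642 its ratio was 1.47 (1.12 to 1.95), under the call on (FPKM + 1).

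Filaggrin and trichohyalin were low throughout. FLG, the precursor of the peptides that bundle keratin, was 1.42, 1.2998, 1.55 and 1.62 FPKM in the order vehicle, SP2509, UNC0642 and both, and no inhibitor comparison called it. In the knockdown table it was 0.261 and 0.417 FPKM in the shLSD1 pair and 0.247 and 0.494 in the shG9a pair, below the minimum. TCHH was 0.292, 0.161, 0.448 and 0.720 FPKM in the inhibitor table, and it reached 1 FPKM only in shLSD1 cells with Dox (0.572 and 1.47 FPKM without and with Dox, 2.57-fold, 1.94 to 3.43). CRNN (cornulin), HRNR and FLG2 stayed below 1 FPKM, and CRNN had 13 reads with both inhibitors against 1 with vehicle. FLG2 went the other way, with 24 reads in vehicle, 2 under SP2509, 26 under UNC0642 and 8 under the combination. It was 13.6-fold lower (3.39 to 119) with SP2509 and 3.23-fold lower (1.41 to 8.33) with both inhibitors, at 0.168 FPKM in vehicle.

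The calgranulins S100A8 and S100A9, which pair to form calprotectin, and the related psoriasin S100A7 were highest with the LSD1 hairpin. S100A9 was 3.98 FPKM in vehicle, 6.04 under SP2509, 68.6 under UNC0642 and 28.3 under the combination. UNC0642 alone was 17.2-fold (12.3 to 24.8) above vehicle, and the combination reached only 0.413 (0.358 to 0.475) of the UNC0642 level. For SP2509 the ratio was 1.52, with an interval of 0.989 to 2.35 that includes 1. In shLSD1 cells S100A9 was 30.4 FPKM without Dox and 302 with Dox, 9.94-fold higher (8.84 to 11.2), whereas in shG9a cells it was 40.7 and 44.1 FPKM.

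S100A8 and S100A7 were lower in level and also highest in shLSD1 cells with Dox. S100A8 was 0.190 FPKM with vehicle, had 0 reads with SP2509, and was 1.72 FPKM with UNC0642 and 0.471 with both inhibitors. It was 1.29 and 13.5 FPKM without and with Dox in shLSD1 cells (10.5-fold, 6.83 to 16.9) and 1.44 and 1.95 FPKM in shG9a cells (1.35-fold, 0.779 to 2.38). S100A7 was 0.119, 0.105, 2.29 and 1.88 FPKM in the inhibitor table, 1.47 and 19.3 FPKM in the shLSD1 pair (13.1-fold, 7.61 to 24.5) and 0.902 and 1.40 FPKM in the shG9a pair. S100A7A, listed in the knockdown table only, had 1 read without Dox and 31 with Dox in shLSD1 cells and 0 in both shG9a libraries. In the same shLSD1 pair the leukocyte markers PTPRC, ITGAM, LYZ, CD14 and CD3E summed to 2.93 FPKM without Dox and 4.69 with Dox, with LYZ at 0 in both and PTPRC at 0.0249 FPKM with Dox. Without and with Dox, ITGAM was 1.97 and 1.96 FPKM and CD14 0.956 and 2.67 FPKM. The endothelial markers summed to 5.24 FPKM without Dox and 14.0 with Dox, nearly all of it CDH5. The part of these markers in the S100 values was not tested. Over all libraries the leukocyte list summed to 0.586 to 4.69 FPKM, with PTPRC at 0.0425 FPKM or below, and CD3E is not listed in the inhibitor table. In the order vehicle, SP2509, UNC0642 and both, the leukocyte list summed to 0.586, 0.859, 1.58 and 2.98 FPKM. ITGAM was 0.316, 0.823, 1.24 and 2.01 FPKM of these sums. The part of the leukocyte markers in the S100 values with the inhibitors was not tested.

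The 6 abundant S100 genes differed in direction. S100A6 (calcyclin) was 240.0, 379, 415 and 932 FPKM in the order vehicle, SP2509, UNC0642 and both, and the combination was 3.89-fold (3.75 to 4.03) above vehicle. S100A6 was also higher with Dox in both lines, at 485 and 688 FPKM in shLSD1 cells and 466 and 806 FPKM in shG9a cells, and it was the 1 member called higher in all 5 comparisons, the shLSD1 call being lost with trimmed-mean scaling. S100A10, the partner of annexin A2 at the cell membrane, was 165, 447, 267 and 460 FPKM in the inhibitor table, 210 and 152 FPKM in the shLSD1 pair and 175 and 191 FPKM in the shG9a pair. It was thus 2.71-fold (2.62 to 2.81) above vehicle with SP2509 and 1.38-fold lower (1.33 to 1.44) with the LSD1 hairpin. S100A2, a nuclear S100 protein of basal squamous cells, was 62.8, 234, 162 and 187 FPKM in the inhibitor table, 3.72-fold (3.52 to 3.94) above vehicle with SP2509. With Dox S100A2 was lower in both lines, from 109 to 47.6 FPKM in shLSD1 cells and from 91.1 to 34.7 FPKM in shG9a cells.

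S100A11, S100A14 and S100A16 moved less. S100A11 (calgizzarin) was 560, 766, 697 and 689 FPKM in the inhibitor table, 854 and 1083 FPKM in the shLSD1 pair and 856 and 1329 FPKM in the shG9a pair, and it was called higher with SP2509 and shG9a. S100A14 was 217, 165, 246 and 265 FPKM in the inhibitor table, 338 and 297 FPKM in the shLSD1 pair and 314 and 205 FPKM in the shG9a pair. It was the 1 member called lower by an inhibitor, with SP2509 (1.32-fold, 1.26 to 1.38), and this call was lost when ratios were centred on the median gene. S100A16 was 115, 109.6, 144 and 197 FPKM in the inhibitor table, 117 and 163 FPKM in the shLSD1 pair and 120 and 138 FPKM in the shG9a pair, called higher with both inhibitors and with shLSD1.

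The other S100 genes that reached 1 FPKM were highest with both inhibitors in the inhibitor table. S100A4, a protein linked to cell motility, was 9.41, 8.16, 12.98 and 30.2 FPKM in the inhibitor table, 10.3 and 14.5 FPKM in the shLSD1 pair and 9.02 and 12.9 FPKM in the shG9a pair. S100A13, which takes part in export of fibroblast growth factor, was 0.980, 0.938, 2.75 and 6.07 FPKM, then 2.36 and 3.32 FPKM and 2.05 and 2.74 FPKM in the pairs. S100A3 was 1.34, 1.12, 6.09 and 6.51 FPKM, then 3.48 and 2.69 FPKM and 3.48 and 1.45 FPKM in the pairs. Thus S100A4 and S100A13 were at least 2.21-fold above each single inhibitor when both were given, whereas S100A3 with both inhibitors was close to UNC0642 alone (ratio 1.07, 0.808 to 1.42). S100A5 was 0.407, 0.287, 1.07 and 2.12 FPKM in the inhibitor table and stayed below 1 FPKM in the knockdown table, as S100A1 and S100A12 did in every library. S100A3 lies within the span of S100A4 on the same strand, and S100A13 and S100A1 overlap on opposite strands. Of the 100-base windows of S100A13, 11.4% belong to another annotated gene as well. The strand setting of the counting is not given in the sources used here, so these values are uncertain to that extent. CHTOP, a chromatin-binding protein with no known part in the envelope, was 20.9, 30.1, 21.5 and 32.8 FPKM in the inhibitor table and 18.8 to 19.9 FPKM in the knockdown table.

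Counted by comparison, 11 of the 16 members compared were higher with SP2509 and 1 was lower, beside 21.0% higher and 39.9% lower among all 13342 genes compared. This all-gene split depended on the scaling: with trimmed-mean scaling 31.0% of all genes were higher and 29.4% lower with SP2509, beside 11 members higher and 0 lower. With UNC0642 15 of 21 were higher and 0 lower, beside 18.2% and 16.9% of all 13244 genes. With both inhibitors 26 of 29 were higher and 0 lower, beside 31.4% and 31.7% of all 13907 genes. At a threshold of 2-fold, 7 members were higher with SP2509, 10 with UNC0642 and 24 with both, beside 8.25%, 4.79% and 13.0% of all genes. At that threshold 0 members were lower with SP2509, UNC0642 or both, beside 13.0%, 3.12% and 9.57% of all genes. The median log2 change of (FPKM + 1) was 0.58, 0.92 and 1.68 for the members and −0.21, −0.01 and −0.02 for all genes. The 3 comparisons share the vehicle library, and these counts describe members that were chosen with such results in view.

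The minimum level shaped these counts. Of the members compared, 4 with SP2509, 9 with UNC0642 and 17 with both inhibitors reached 1 FPKM in the treated library only and had to be higher. Among the 12 members at 1 FPKM or more with vehicle, 7, 6 and 9 were higher and 1, 0 and 0 lower. Among all genes at that level with vehicle, 15.7%, 13.9% and 24.1% were higher and 43.1%, 18.2% and 35.7% were lower. Those 12 members were S100 genes, TCHHL1, FLG and CHTOP, so the SPRR and LCE genes, IVL and KPRP entered through the treated libraries.

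With the hairpins, members were called in both directions. With shLSD1 8 of 17 members compared were higher and 4 lower, beside 24.8% and 12.3% of all 12970 genes. The 8 were S100A9, S100A8, S100A7, S100A6, S100A4, S100A16, TCHHL1 and TCHH, and the 4 were IVL, KPRP, S100A2 and S100A10. With trimmed-mean scaling the shLSD1 split was 5 members higher and 5 lower, beside 16.5% of all genes higher and 17.0% lower. S100A4 lost its call in both lines, and S100A16 its call with shLSD1, with centring on the median gene as with trimmed-mean scaling. With shG9a 4 of 17 were higher and 6 lower, beside 32.9% and 17.6% of all 13080 genes. With trimmed-mean scaling 3 were higher and 6 lower with shG9a, beside 19.4% and 24.5% of all genes. The 4 were S100A6, S100A4, S100A11 and TCHHL1, and the 6 were IVL, KPRP, S100A2, S100A3, S100A14 and SPRR1B. At 2-fold the numbers were 4 higher and 3 lower with shLSD1, beside 3.36% and 3.27% of all genes, and 1 higher and 3 lower with shG9a, beside 5.13% and 6.02%. The median log2 change was 0.36 for shLSD1 (0.13 for all genes) and 0.13 for shG9a (0.18 for all genes).

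**Figure D3:**
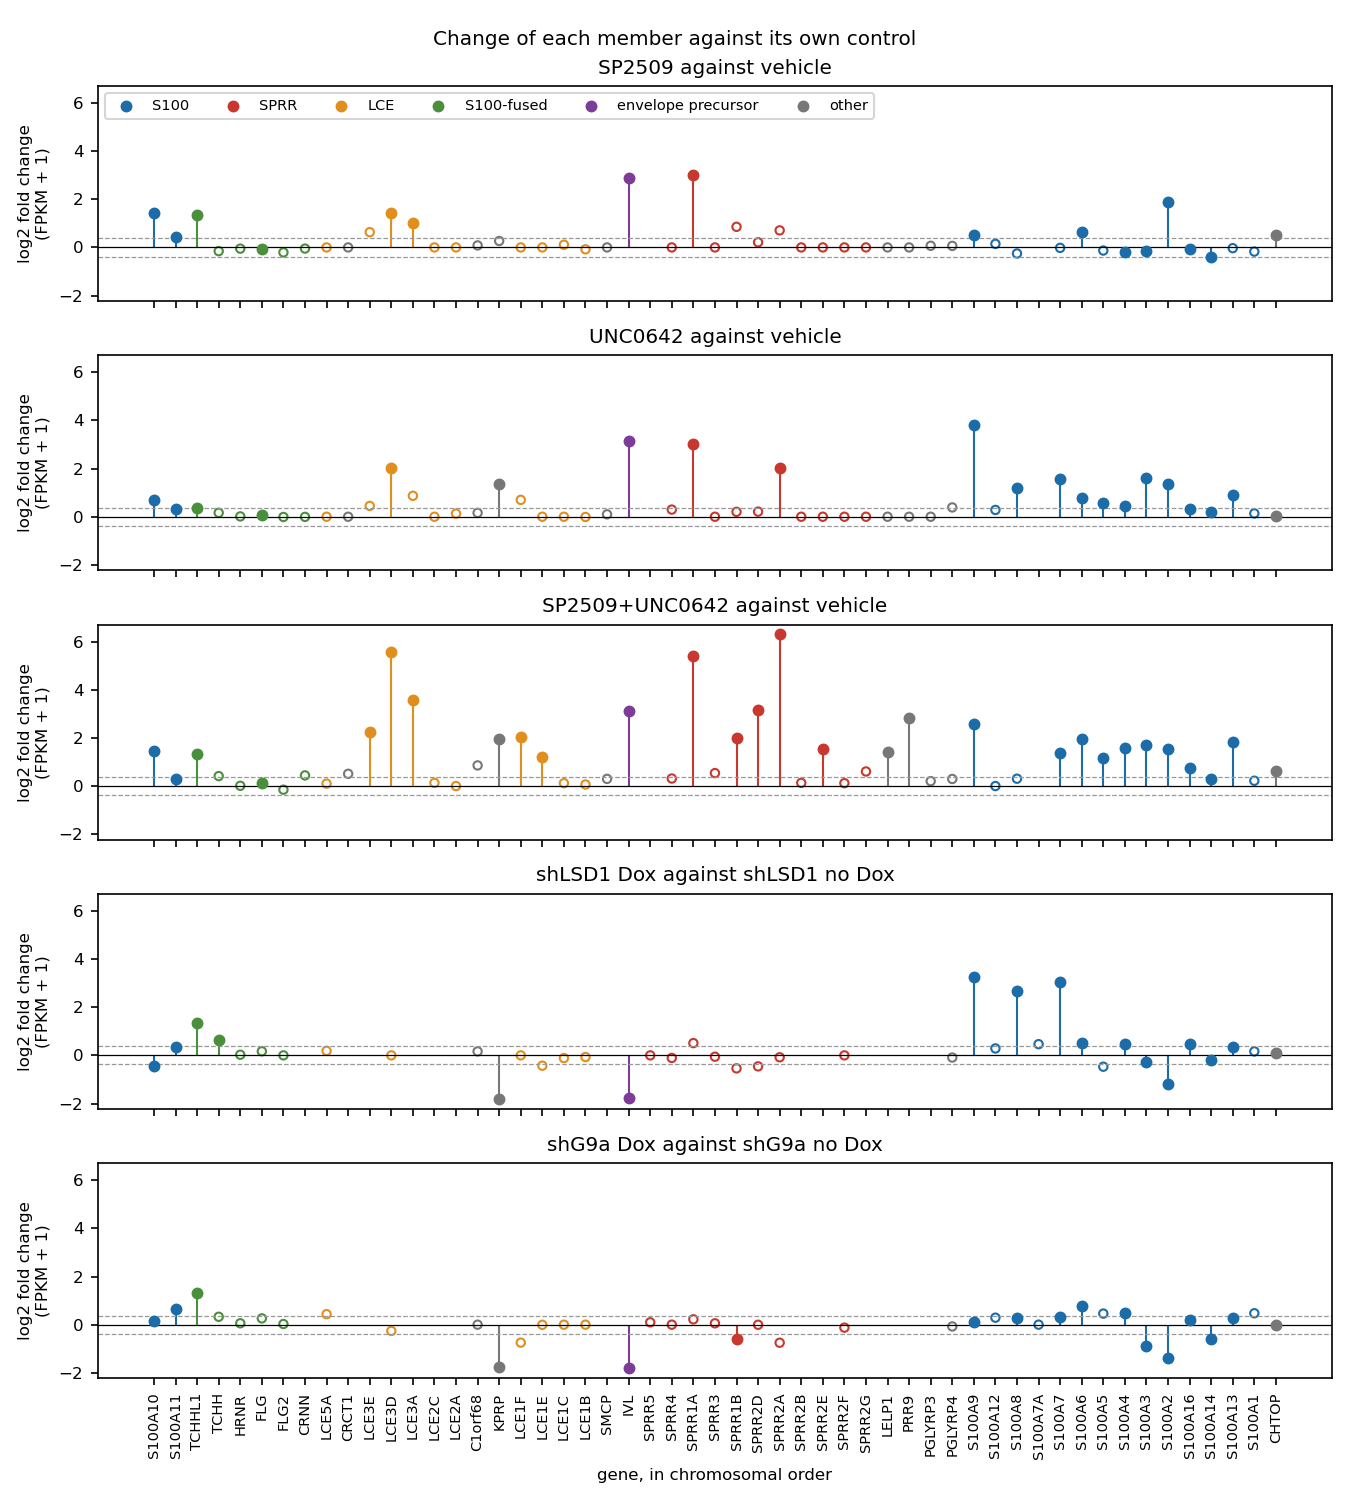
Log2 change of (FPKM + 1) of each member against its own control in the 5 comparisons, genes in chromosomal order, coloured by family. Filled points reached 1 FPKM in at least 1 of the 2 libraries, open points did not, and dashed lines mark 1.3-fold. With both inhibitors every filled point lies above 0 and the tallest is SPRR2A at 6.30, while with the hairpins IVL lies below 0 in both lines (−1.76 and −1.81) and S100A9 reaches 3.27 with shLSD1.

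To examine the combined treatment, the level with both inhibitors was set beside the sum of the levels with each alone. Among the 30 members with at least 1 FPKM in the inhibitor table, 23 were highest with both inhibitors and 17 exceeded the sum. This sum counts the vehicle level 2 times. With the vehicle level subtracted once from it, a comparison chosen after the values were seen, 22 members exceeded it, the 17 and also FLG, S100A3, S100A16, S100A14 and CHTOP. The matching shares of all genes were not determined, so these counts describe the members only and cannot show whether they are unusual. The 17 comprised all 5 SPRR and all 5 LCE genes at that level, KPRP, LELP1 and PRR9, and S100A6, S100A5, S100A4 and S100A13. Of these, LCE3E, LCE1F, LCE1E, SPRR1B, SPRR2D, SPRR2E, LELP1 and PRR9 reached 1 FPKM in the inhibitor table with both inhibitors only. They entered through that library, so that they were highest in it was fixed in advance and their excess over the sum was favoured. The ratio of the combination to the sum was 25.2 for SPRR2D, 21.0 for SPRR2A, 9.28 for LCE3D, 5.87 for LCE3A and 2.84 for SPRR1A, and it was 1.17 for S100A6. The 7 members not highest with both inhibitors were S100A11, TCHHL1, IVL, S100A9, S100A8, S100A7 and S100A2. Among the envelope precursors, SPRR1A, SPRR2A, LCE3D and LCE3A reached 1 FPKM with a single inhibitor as well. These lay above the sum and involucrin below it, with the vehicle level subtracted as well as without. Without replicates or a dose for the combination, an interaction between the inhibitors could not be tested.

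**Figure D4:**
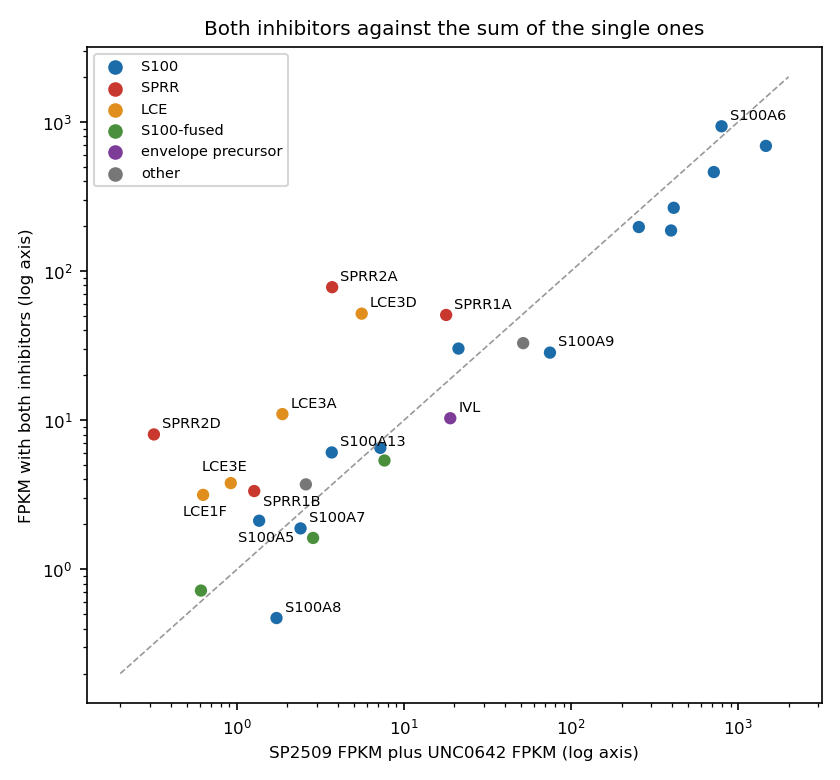
FPKM with both inhibitors against the sum of FPKM with SP2509 alone and UNC0642 alone (both log axes), 1 point per named member with reads on both axes, coloured by family, with the dashed line at equality. PRR9, LELP1, SPRR2E and LCE1E had 0 reads with each single inhibitor and are not drawn. SPRR2D, SPRR2A and LCE3D lie furthest above the line (ratios 25.2, 21.0 and 9.28), and IVL, S100A9 and S100A8 lie below it.

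Inhibitor and hairpin against the same enzyme were compared gene by gene. For LSD1, 12 members were compared in both arms, of which S100A6, S100A9 and TCHHL1 were higher in both, and IVL, S100A10 and S100A2 were higher with SP2509 and lower with the hairpin. For G9a, 16 members were compared in both, of which S100A4 and S100A6 were higher in both, and IVL, KPRP, S100A2 and S100A3 were higher with UNC0642 and lower with the hairpin. Between the 2 hairpin lines 16 members were compared in both, with S100A4, S100A6 and TCHHL1 higher in both, IVL, KPRP and S100A2 lower in both, and none called in opposite directions. Some of these calls were weak. The S100A9 ratio with SP2509 had an interval that includes 1 (0.989 to 2.35). The S100A6 call with shLSD1 was lost with trimmed-mean scaling, and the S100A4 calls in both lines were lost with that scaling and with centring on the median gene. The shares of all genes called in the same or in opposite directions were not determined for these pairs. The counts therefore describe the members only and cannot show a trait of the cluster. The controls of the inhibitor and hairpin arms differed in level. IVL, for example, was 0.297 FPKM in vehicle and 4.55 and 3.65 FPKM in uninduced shLSD1 and shG9a cells. The part of this in the opposite directions was not tested. Doxycycline was added in both lines, and its part in these shared changes cannot be told apart from that of the hairpins. No SPRR or LCE gene entered these comparisons, since they were too low in the knockdown table. SPRR1B reached the minimum in the shG9a pair, but not with UNC0642 (0.270 FPKM) or in the shLSD1 pair (0.454 FPKM without Dox).

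**Figure D5:**
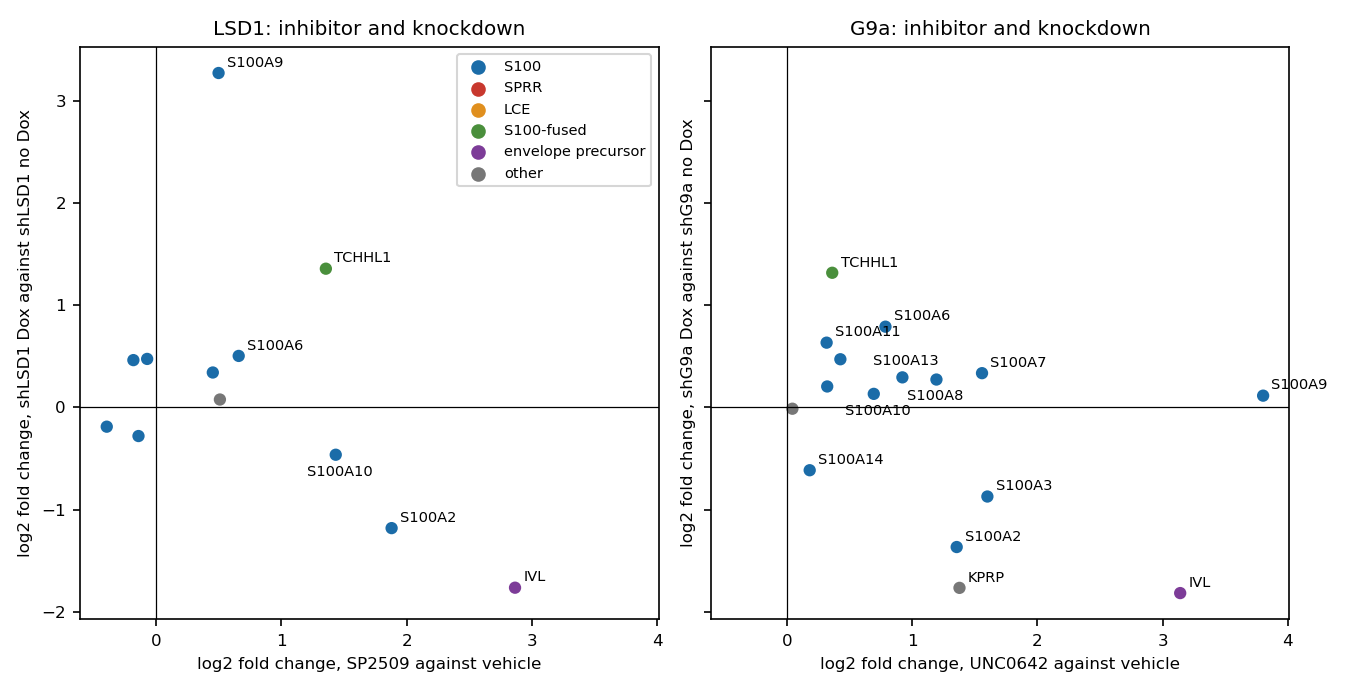
Log2 change of (FPKM + 1) with the inhibitor (x axis) and with the hairpin (y axis) against LSD1 (left) and G9a (right), 1 point per member compared in both arms, coloured by family. IVL and S100A2 lie at the lower right in both panels, higher with the inhibitor (IVL 2.87 and 3.14) and lower with the hairpin (−1.76 and −1.81).

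Genes of the same pathway elsewhere in the genome were called in both directions. A list of 12 cornified envelope genes outside the cluster (transglutaminases, plakins, cystatin A and others) had 7 members compared with SP2509, 7 with UNC0642 and 8 with both inhibitors. Of these 3, 2 and 3 were higher, beside 21.0%, 18.2% and 31.4% of all genes, and 1, 1 and 2 lower, beside 39.9%, 16.9% and 31.7%. With shLSD1 2 of 7 were higher and 3 lower, beside 24.8% and 12.3% of all genes. With shG9a 2 of 7 were higher and 5 lower, beside 32.9% and 17.6%. These counts rest on 7 or 8 genes of a list chosen with earlier results known, and they were not tested against all genes. TGM1, the membrane-bound transglutaminase that cross-links envelope precursors, was 6.17, 6.29, 5.36 and 3.27 FPKM in the inhibitor table, 12.9 and 9.42 FPKM in the shLSD1 pair and 13.6 and 2.21 FPKM in the shG9a pair. SBSN (suprabasin) was 0.354, 0.905, 4.95 and 53.6 FPKM in the inhibitor table and below 1 FPKM in the knockdown table. PI3 (elafin), a protease inhibitor cross-linked to the envelope, was 3.32, 4.77, 13.2 and 32.9 FPKM, then 3.03 and 29.1 FPKM with shLSD1 and 5.03 and 3.20 FPKM with shG9a. SBSN therefore had the order of libraries seen for SPRR2A, and PI3 was high both with the inhibitors together and with the LSD1 hairpin.

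Partners of the S100 proteins were followed as well. ANXA2, which binds S100A10, was 95.1, 158, 129 and 149 FPKM in the inhibitor table, 116 and 31.9 FPKM in the shLSD1 pair and 110.3 and 98.5 FPKM in the shG9a pair. Like S100A10, it was higher with SP2509 and lower with the LSD1 hairpin. ANXA1 was 71.4, 122, 83.6 and 139 FPKM, then 73.1 and 38.7 FPKM and 68.1 and 32.2 FPKM in the pairs. AGER and TLR4, receptors for calgranulins, did not exceed 4.87 and 2.31 FPKM in any library. Of 4 S100 genes outside the cluster, S100P alone is listed, with 28.5, 25.2, 25.9 and 39.1 FPKM in the inhibitor table, 87.04 and 151 FPKM in the shLSD1 pair and 97.7 and 74.3 FPKM in the shG9a pair.

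The edges of the window were examined for the extent of these changes. Just inside it lie S100A10 and CHTOP, described above. Just outside it THEM4, at the lower edge, was 6.56, 3.25, 6.44 and 9.80 FPKM in the inhibitor table, and SNAPIN, at the higher edge, was 33.7, 23.6, 28.7 and 23.4 FPKM. In windows of equal length on either side, 7 of 38 protein-coding genes compared at lower coordinates and 2 of 45 at higher coordinates were at least 2-fold higher with both inhibitors, beside 13.0% of all genes. The 24 of 29 members are not set against these, because 17 of the 29 reached 1 FPKM in the treated library only. Among genes at 1 FPKM or more in vehicle, 6 of 36 at lower coordinates, 7 of 12 members and 2 of 43 at higher coordinates were at least 2-fold higher with both inhibitors, beside 7.68% of all genes at that level. Another 11 protein-coding genes of GENCODE 44 in the window, among them RPTN, LCE3B, LCE3C and the loricrin gene, are listed as protein-coding in neither table.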

How the data were processed

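Per the labels, total RNA of Kyse510 cells was sequenced from both ends (150 bases each). The authors mapped the reads to GRCh38 (release 87, per the study's methods) and deposited FPKM values in 2 tables, of 31582 genes (inhibitors) and 28942 genes (knockdowns). The aligner, the counting tool and its strand setting are not given in the sources used here. Library totals were recovered from the steps of FPKM in single-exon genes, and each gene's reads as the whole numbers that fit its values. They sum to 99.7% to 99.8% of the totals. The procedure was tested on simulated data.

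Folds used a pseudocount of 1, a minimum of 1 FPKM in at least 1 of the 2 libraries, and a threshold of 1.3 taken from the study's methods, with 2 beside it. Ratio intervals are conditional exact binomial and level intervals exact Poisson, both at 95%. Without molecular identifiers they cover counting error only. Against 0 reads a ratio is a bound against 3 reads, and no ratio is given where both libraries have 3 reads or fewer. With 1 library per condition no test of conditions was possible. Every member with at least 1 FPKM in any library is named. The members, gene lists, markers and motifs were chosen with earlier results of these data known. Alternatives were pseudocounts of 0.1 and 0.01, no minimum and a minimum of 5 FPKM, 2-fold, centring on the median gene, trimmed-mean scaling, the mean of the 2 uninduced libraries as control, the smallest gene length and, chosen after seeing the data, the sum of the single inhibitors less vehicle. An added call rule, an exact binomial p on the reads of the 2 libraries, was run but supports nothing here, since the members were chosen on the same values. Promoters are from RefSeq and annotation from GENCODE 44, both on the build of the files. Python 3.11.15, pandas 2.3.3 and scipy 1.17.1 were used.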

Additional observations from a re-analysis of the deposited data

Results flagged for a closer look

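Several members moved in opposite directions with the inhibitor and the hairpin against the same enzyme. With 1 library in each condition, these differences were not tested. The controls also differed in level, with the 2 tables set side by side only. In vehicle, uninduced shLSD1 and uninduced shG9a cells, IVL was 0.297, 4.55 and 3.65 FPKM and KPRP 0.205, 3.50 and 2.47 FPKM. In the same order S100A2 was 62.8, 109 and 91.1 FPKM, S100A3 1.34, 3.48 and 3.48 FPKM, and S100A10 165, 210 and 175 FPKM. The part of these control levels in the opposite directions was not tested. The share of all genes that moved in opposite directions was not determined. For LSD1, the log2 change with SP2509 exceeded that with shLSD1 by 4.63 for IVL (2.87 and −1.76), by 3.06 for S100A2 (1.88 and −1.18) and by 1.90 for S100A10 (1.43 and −0.46). For G9a, the log2 change with UNC0642 exceeded that with shG9a by 4.96 for IVL (3.14 and −1.81), by 3.14 for KPRP (1.38 and −1.76), by 2.72 for S100A2 (1.36 and −1.36) and by 2.47 for S100A3 (1.60 and −0.87).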

How the results depend on the processing

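No paired analysis was possible because each condition has 1 library, and no replicate could be left out for the same reason. With UNC0642 and with both inhibitors, 0 members were called lower under each alternative run. A threshold of 2-fold gave 7 higher and 0 lower for SP2509 (8.25% and 13.0% of all genes), 4 higher for shLSD1 (3.36%), and 1 higher and 3 lower for shG9a (5.13% and 6.02%). Centring and trimmed-mean scaling each left 0 lower for SP2509, beside 35.8% and 29.4% of all genes, and trimmed-mean scaling gave 5 higher for shLSD1, beside 16.5%. A minimum of 5 FPKM gave 8 of 12 higher for UNC0642 and 17 of 19 for both inhibitors, beside 16.9% and 32.1% of all genes, and 2 lower for each of shLSD1 (of 12) and shG9a (of 10), beside 12.3% and 18.6%. Without a minimum, 8 of 40 were lower for shLSD1 and 7 of 40 higher for shG9a, beside 7.88% and 19.0%, and pseudocounts of 0.1 and 0.01 each gave 7 of 17 higher for shG9a, beside 38.6% and 39.1%. The median log2 change of members with shG9a, 0.13 as reported, was −0.019 after centring and −0.10 with trimmed-mean scaling. With the vehicle level subtracted from the sum of the single inhibitors, an alternative chosen after seeing the data, 22 members in place of 17 exceeded it. The shares of all genes above either sum were not determined. In genes with few reads in the control, the size of a change rests on a handful of reads, and 0 reads set only a lower bound.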
